A study of Mus musculus with 34 samples.

Results

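The primary cilium transport genes are the genes that carry proteins into, along and out of the cilium: the subunits of the intraflagellar transport (IFT) trains, their motors, the BBSome, the small GTPases that load and unload cargo, and proteins of the transition zone. A list of 39 symbols was looked up in the deposited FPKM files, and all 39 were found among the 23951 genes listed. Membership rests on the symbol, by function, and on no threshold in the measured values. It holds 11 subunits of IFT-B, 6 of IFT-A, the IFT-A adaptor Tulp3, 4 motor subunits, 7 subunits of the BBSome, 2 chaperonins of BBSome assembly, 3 GTPases and 5 transition zone genes.

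RNA was measured in 27 samples of aged mice, each taken here as 1 mouse. Hippocampus came from 4 control mice (Hdac1f/f), 5 Hdac1 cKO mice (Hdac1f/f, Nestin-Cre), 6 5XFAD mice (Hdac1f/f, 5XFAD) and 5 compound mice (Hdac1f/f, Nestin-Cre, 5XFAD). The age is given as 13 to 14 months for control and Hdac1 cKO mice and as 13 months for 5XFAD and compound mice. GFAP+ nuclei, sorted from frozen cortex with antibodies to GFAP and NeuN, came from 3 controls of the first genotype and 4 Hdac1 cKO mice of the second, which the study's supplement gives as 13 months old. The aged mice of the study were male. Every group carries the floxed Hdac1 alleles, and no group analysed here carries Nestin-Cre without them. Nestin-Cre acts in neural progenitors and so removes Hdac1 from their descendants, among them neurons and astrocytes, and leaves it in microglia. The 5XFAD transgenes express mutant human APP and presenilin 1 under the Thy1 promoter, which is active mostly in neurons.

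A primary cilium is a single, immotile antenna that most neurons and astrocytes carry, and it gathers receptors such as those of Hedgehog signalling and some G protein-coupled receptors. IFT trains, built of IFT-B and IFT-A, move outward with the kinesin-2 motor and back with the dynein-2 motor. The BBSome rides on the trains to collect membrane proteins for export. The transition zone is the gate at the base. The ependymal cells that line the ventricles next to the hippocampus build many motile cilia with the same trains, so that in bulk tissue both kinds of cilia contribute to these genes. Fewer ciliated cells and less RNA per cell cannot be told apart in such samples.

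The targeted gene was checked first. Hdac1 measured 6.42, 8.71, 10.7 and 5.91 FPKM in the control hippocampi, while those of Hdac1 cKO had 3.00, 3.03, 2.62, 2.70 and 2.36 FPKM. The 5XFAD mice had between 6.10 and 9.64 FPKM, with a median of 8.74, and the compound mice 1.82, 2.52, 1.15, 1.86 and 2.24 FPKM. The Cre-positive and Cre-negative hippocampal groups did not overlap. In GFAP+ nuclei, the controls had 14.5, 9.91 and 22.3 FPKM and those with Nestin-Cre from 5.80 to 11.5 FPKM, so that these groups overlapped. The relative depth of the libraries, estimated from the FPKM that 1 fragment is worth and set to 1 in control 1 of each tissue, ranged from 0.753 to 2.36 in hippocampus and from 0.865 to 1.26 in nuclei. Its median was 1.26 in control, 1.79 in Hdac1 cKO, 1.66 in 5XFAD and 1.03 in compound hippocampi, and its part in the results was not tested.

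Regulatory factor X (RFX) proteins switch on ciliary genes through the X-box, an inverted repeat of a short arm. RefSeq promoter windows (GRCm38.p6, from 250 bases before to 50 bases after the start of the gene) were at hand for 35 of the 39 genes. They were searched on both strands for the X-box, with its arms at most 3 bases apart, for the single arm GTTGCC and for the GC box core GGGCGG. For Arl6, which has more than 1 window, the first was taken. An X-box was found in 4 of the 35 windows (11.4%), against 271 of the 16745 windows of all genes in the files (1.62%). The arm, which can lie inside an X-box, was found in 16 of 35 (45.7%) against 2074 of 16745 (12.4%), and the GC box core in 23 of 35 (65.7%) against 7902 of 16745 (47.2%). A match of this kind is a description of the letters and not of a bound site. The X-boxes are shown because the listing used no sequence and their share was above that of all windows. Each stretch is written 5′ to 3′ in the sense of the gene, with the X-box in capitals:
Ift57, upstream: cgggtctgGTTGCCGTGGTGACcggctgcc
Ift57, downstream: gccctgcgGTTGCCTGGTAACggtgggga
Bbs1: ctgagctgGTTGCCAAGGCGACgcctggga
Tctn1: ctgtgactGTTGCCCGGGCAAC
Tctn2: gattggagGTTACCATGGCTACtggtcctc

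The stretches of Ift57 lie at chr16:49699312-49699341 and chr16:49699339-49699367 of mm9 on the plus strand, and their X-boxes span positions -87 to -74 and -60 to -48 from the start of the gene. That of Bbs1 lies at chr19:4906605-4906634 on the minus strand (positions 2 to 15), that of Tctn1 at chr5:122714420-122714441 on the minus strand (37 to 50), and that of Tctn2 at chr5:125048688-125048717 on the plus strand (-62 to -49). Of the genes with an arm alone, Bbs7, Ift172, Ift88 and Traf3ip1 are shown because they had an unadjusted p under 0.05 in Hdac1 cKO mice. The arm, or its reverse complement, is in capitals:
Bbs7: gcgccccgGTTGCCttggaaac
Ift172: gcactcacGTTGCCtgtgcgtc
Ift88: tcgcgcctGGCAACggctgggc
Traf3ip1: gcgcgtccGTTGCCaaggccgc

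They lie at chr3:36512419-36512440 (minus strand), chr5:31593474-31593495 (minus), chr14:58042921-58042942 (plus) and chr1:93391158-93391179 (plus) of mm9. Ift27, Ift140, Wdr35, Kif3a, Dync2h1, Bbs5, Arl13b and Mks1, not past that threshold, also had an arm alone, and Tctn2 had an arm apart from its X-box. Ift74, Cep290 and Arl6, which were past that threshold, had neither arm nor X-box, and Ift81 had no window. The arm was also found in 9 of the 16 windows of the ependymal marker genes (56.2%) and in 14 of the 37 windows of other cilium transport genes (37.8%), but in 1 of 16 of ciliary signalling genes (6.25%). Among the lists of cell markers without a ciliary role, it was found in 2 of 6 windows for neurons (33.3%), 1 of 7 for astrocytes (14.3%) and 0 of 5 for microglia. Choroid plexus markers had it in 3 of 8 (37.5%). An X-box was found in 4 of the 16 ependymal windows (25.0%) and 5 of the 37 of other cilium transport genes (13.5%). Ciliary signalling genes had it in 0 of 16. The GC box core was found in 6 (37.5%), 18 (48.6%) and 11 (68.75%) of the windows of these lists, in that order.

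In control hippocampus the cilium transport genes covered a wide range of levels. FPKM divides by transcript length, although these libraries read only the 3′ end, so that the order of genes is approximate. The highest was Arl3, the GTPase that releases lipidated cargo in the cilium, at 254 ± 34.1 FPKM (SD, n = 4). It was followed by Ift20, the IFT-B subunit that also sits at the Golgi (135 ± 9.56 FPKM), by Kif3a, the motor subunit of kinesin-2 (69.7 ± 5.41 FPKM), and by Ift74 (52.0 ± 4.23 FPKM) and Ift27 (49.1 ± 6.05 FPKM). Every control mouse had more Arl3 than Ift20 and more Ift20 than Kif3a, whereas the ranges of Ift74 and Ift27 overlapped. Of the 39 genes, 2 had a mean of at least 100 FPKM, 12 a mean from 10 to 100, 24 a mean from 1 to 10 and 1 a mean under 1. The last was Mks1, a transition zone gene, with at most 0.648 FPKM in a control mouse. The highest IFT-A subunit was Ift43 (32.0 ± 11.5 FPKM), the highest BBSome subunit Bbs4 (24.4 ± 4.15 FPKM), and the highest transition zone gene Cep290 (10.7 ± 0.39 FPKM). The chaperonins Bbs10 (1.39 ± 0.28 FPKM) and Bbs12 (1.53 ± 0.94 FPKM) were among the lowest. The median over the 39 genes was 5.57 FPKM, beside 6.66 FPKM over all genes with a mean of at least 0.5.

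**Figure D1:**
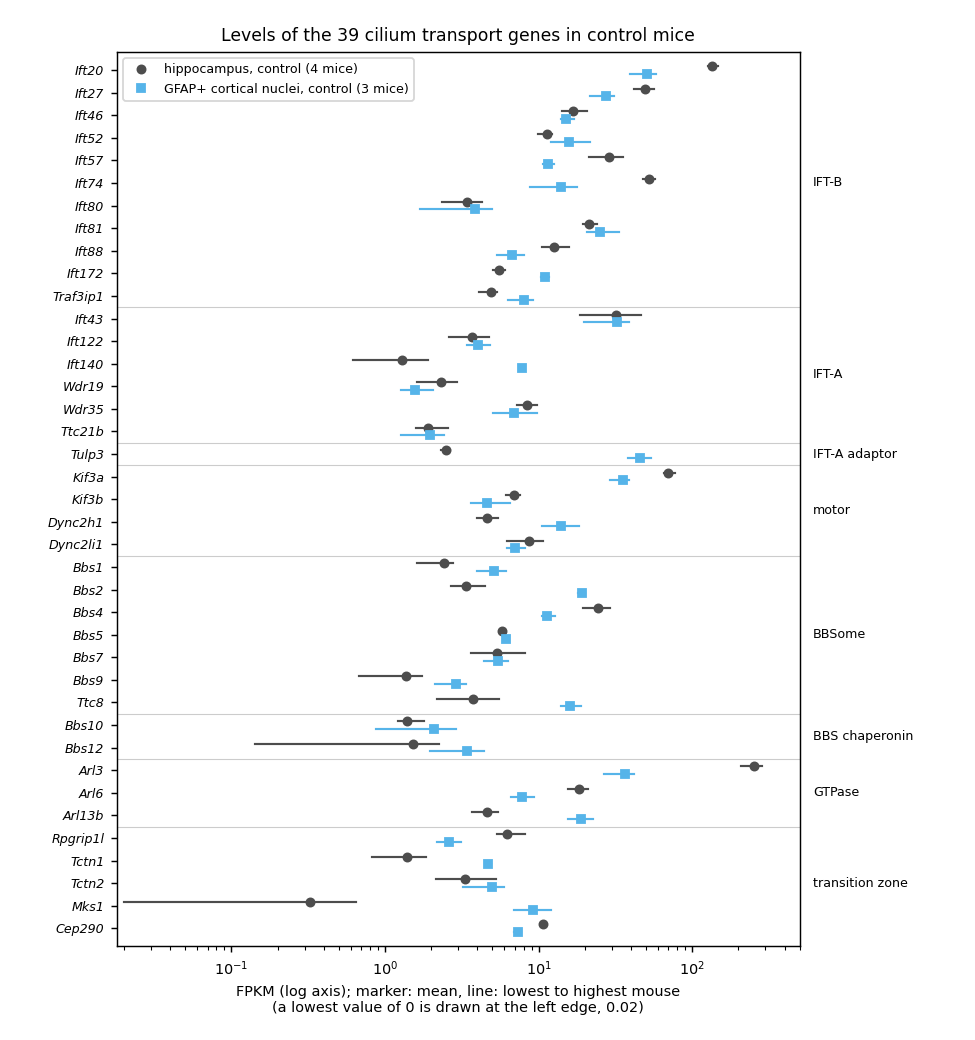
Mean FPKM (log axis) of each of the 39 cilium transport genes in control hippocampus (circles, 4 mice) and control GFAP+ cortical nuclei (squares, 3 mice), with lines from the lowest to the highest mouse and genes grouped by role. Arl3 and Ift20 stand highest in hippocampus, while Tulp3 and Mks1 stand far higher in the nuclei.

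The GFAP+ nuclei showed another profile. Nuclear RNA from cortex was read along whole transcripts with another kit, so tissue, RNA fraction and chemistry cannot be told apart and no test was made. Tulp3, which brings G protein-coupled receptors to IFT-A, had 46.1 ± 7.82 FPKM in the control nuclei (SD, n = 3) and 2.51 ± 0.15 FPKM in control hippocampus (n = 4). Mks1 had 9.15 ± 2.60 FPKM in nuclei and 0.326 ± 0.27 FPKM in hippocampus, and Ift140, a core subunit of IFT-A, 7.83 ± 0.16 and 1.28 ± 0.53 FPKM. Arl3 went the other way, with 36.4 ± 8.58 FPKM in nuclei. In all, 11 of the 39 genes were at least 2-fold higher in the nuclei and 7 at least 2-fold lower, as were 5821 and 3879 of the 15816 genes with 0.5 FPKM in either.

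Marker genes were read against the labels. The nuclei had between 53.9 and 93.5 FPKM of Gfap and between 15.4 and 16.9 FPKM of the neuronal gene Rbfox3, which in hippocampus stood between 136 and 186 FPKM. The 6 oligodendrocyte markers summed to between 450 and 1223 FPKM in the nuclei, beside 1008 to 1890 FPKM in hippocampus. Of the 20 ependymal markers, 11 had a mean of at least 0.5 FPKM in the control nuclei and none was at 0 in all 3 mice.

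The comparison of Hdac1 cKO with control asked how loss of HDAC1 in the brain moves these genes in aged mice. Most were somewhat lower, and the IFT-B subunits made up most of those with a low p-value. Genes were tested with limma on log2(FPKM + 1), which understates the change of low genes, and Mks1 was under the filter of a mean of 0.5 FPKM, so 38 genes were tested. None was a DEG (differing 1.5-fold or more, with p below 0.05 before adjustment), a rule that 3.36% of all 14265 genes met, and none had a Benjamini-Hochberg adjusted p under 0.05, against 0.154% of all genes. At an unadjusted p under 0.05 there were 9 genes, all of them lower, which is 23.7% of 38, against 11.7% of all genes in either direction and 6.84% lower. That number was 5 without control 3, and 7 to 10 without any other mouse. The median difference over the 38 genes was -0.10 on the log2 scale, against -0.00068 over all genes, and 31 of the 38 were lower, against 50.2% of all genes.

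All 11 IFT-B subunits were lower in Hdac1 cKO mice, with a median difference of -0.31 and a range of -0.41 to -0.02. Ift74 and Ift81 form the pair that binds tubulin, the main cargo of a growing cilium. Ift74 (mm9 chr4:94281182-94359920) measured 53.8, 57.2, 48.2 and 48.9 FPKM in the controls and 43.2, 40.1, 37.7, 38.8 and 34.6 FPKM after Hdac1 loss. The groups did not overlap, and the difference was -0.41 ± 0.09 (SE; limma adjusted p = 0.12). The two-sided exact permutation p was 0.0079, the lowest value possible with 4 and 5 mice. Ift81 (chr5:123000213-123064527) measured 23.9, 19.6, 22.4 and 19.8 FPKM in the controls and 17.96, 15.65, 13.47, 16.51 and 15.95 FPKM in the Hdac1 cKO mice. Again no Hdac1 cKO mouse reached the lowest control, and the difference was -0.41 ± 0.11 (limma p = 0.0024, adjusted p = 0.17, exact permutation p = 0.0079). Ift172, a peripheral subunit of IFT-B, went from 5.57 ± 0.46 to 3.96 ± 0.44 FPKM (-0.41 ± 0.12, limma adjusted p = 0.21). Ift57, Ift88 and Traf3ip1 differed by -0.36 ± 0.14, -0.31 ± 0.13 and -0.31 ± 0.13, each with an unadjusted p under 0.05.

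Outside IFT-B, 3 genes had an unadjusted p under 0.05. Cep290, the large protein that links the ciliary membrane to the microtubules at the transition zone, measured 10.4, 11.1, 11.1 and 10.4 FPKM in the controls and 9.41, 8.35, 6.41, 8.49 and 8.17 FPKM in the Hdac1 cKO mice, without overlap (-0.37 ± 0.12, limma adjusted p = 0.23). Bbs7, a BBSome subunit (chr3:36472064-36512399), measured 8.20, 3.62, 5.21 and 4.37 FPKM in the controls and 3.15, 2.95, 3.79, 3.09 and 2.94 FPKM with Hdac1 lost. Control 1 was far above the rest, and the difference of -0.56 ± 0.19 (limma adjusted p = 0.26, exact permutation p = 0.016) became -0.36 without it. It passed 1.5-fold, and so became a DEG, without control 2 (-0.69), control 4 (-0.62) or Hdac1 cKO mouse 3 (-0.61). Arl6, the GTPase that recruits the BBSome to membranes, differed by -0.28 ± 0.13. The other BBSome subunits moved little, between -0.23 for Ttc8 and 0.11 for Bbs9, and so did the motor subunits, between -0.17 for Kif3a and 0.09 for Dync2li1. The 6 IFT-A subunits ranged from -0.25 for Wdr35 to 0.08 for Ttc21b, and Tulp3 differed by -0.04 ± 0.13.

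**Figure D2:**
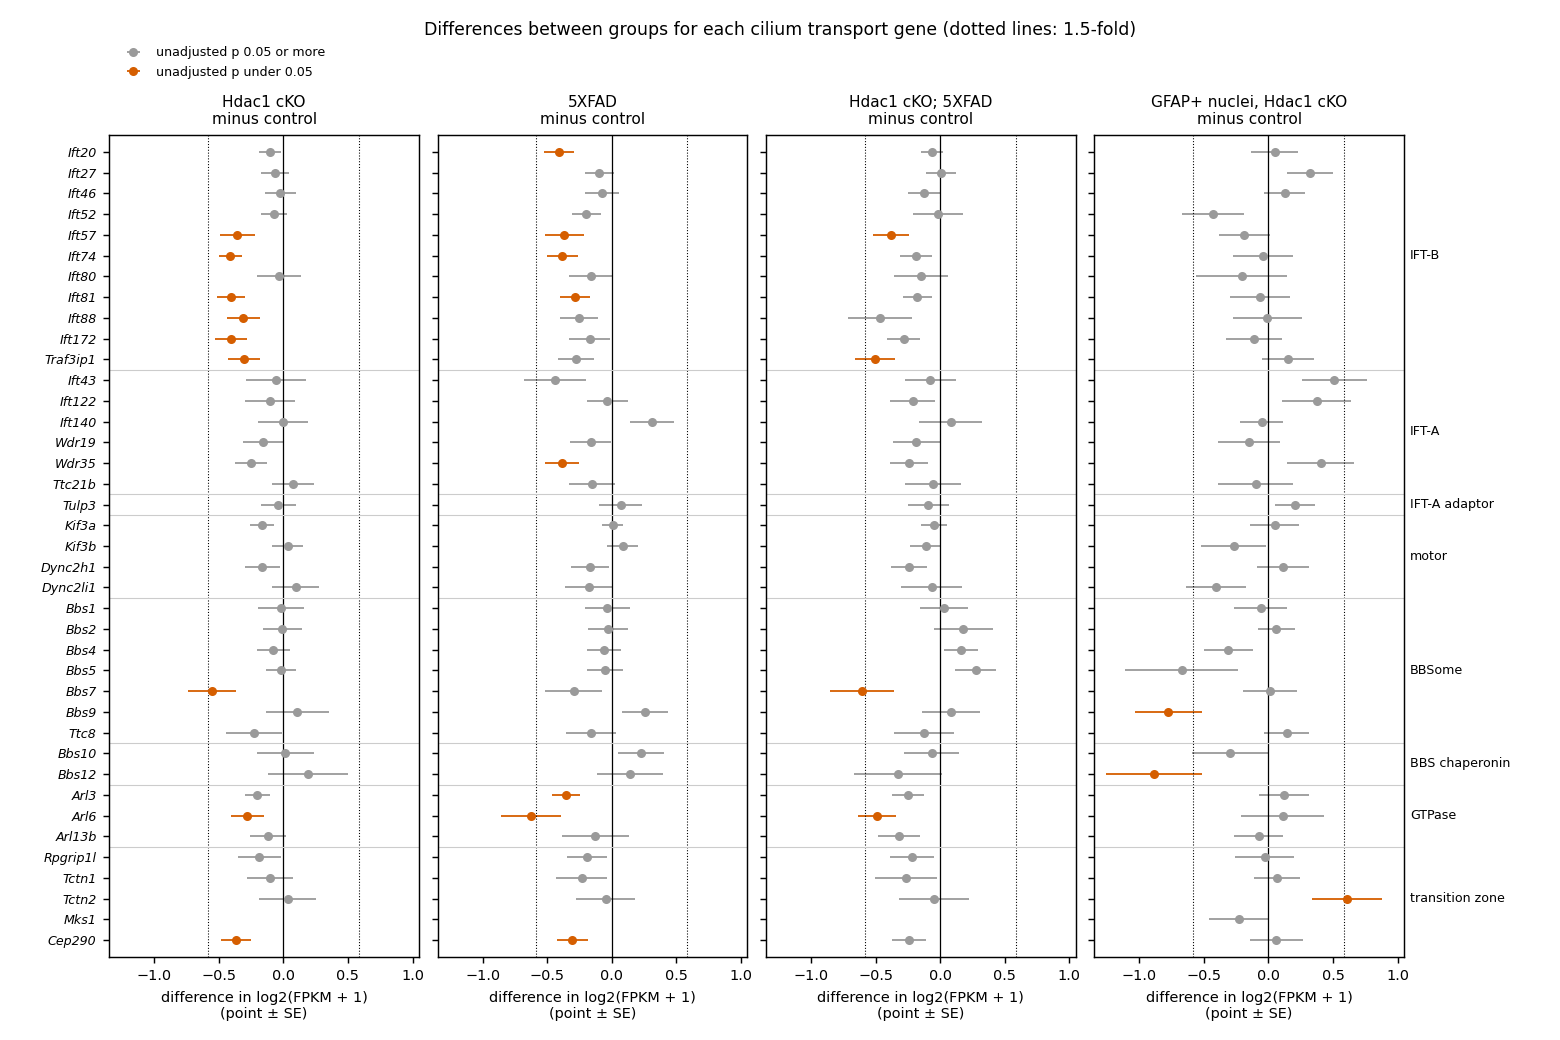
Difference in log2(FPKM + 1) with its SE for each gene in 4 comparisons, orange where the unadjusted limma p was under 0.05 and with dotted lines at 1.5-fold. In the 3 hippocampal panels, which share the control mice, 31 of 38 genes lie left of 0, and in GFAP+ nuclei 21 of 39. Mks1 was tested only in nuclei.

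The comparison of 5XFAD with control asked the same of amyloid pathology. It shares the 4 control mice with the comparison above, so that like directions in both are partly set by the same mice. The 5XFAD and compound samples were numbered in the deposit apart from the control and Hdac1 cKO samples. Whatever differs between these sets cannot be told apart from the 5XFAD transgenes, here and in compound against control or Hdac1 cKO mice. Whether the libraries were made or read apart is not stated. Arl6 was the only DEG among the 38 genes (2.63%), against 2.95% of all 14402 genes. At an unadjusted p under 0.05 there were 8 genes (21.1%), all lower, against 10.7% of all genes and 5.46% lower. That number was 4 without control 3, all of them lower, and 6 to 9 without any other mouse. By limma no gene had an adjusted p under 0.05, against 0.708% of all genes. The median difference was -0.16 on the log2 scale against -0.0088 over all genes, and 31 of 38 were lower against 51.8%. The median was -0.11 without 5XFAD mouse 4.

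Markers of other cell types moved with the 5XFAD transgenes as well. The 8 microglial markers summed to 226 to 287 FPKM in control, 677 to 958 in 5XFAD and 899 to 1796 in compound mice, with 6 DEGs, all higher, in each of the latter groups, and none was at 0 in every mouse of a group. The 8 astrocyte markers summed to 1149 to 1277, 1262 to 1496 and 1419 to 1584 FPKM, and Gfap stood at 25.1 ± 1.40, 97.5 ± 15.4 and 115 ± 36.4 FPKM (SD). Of the 8 neuron markers, 6 were lower in 5XFAD mice, and the median difference was -0.14, with 2 lower and 1 higher at an unadjusted p under 0.05. In compound mice 4 were lower, with a median of -0.05 and with 1 lower and 2 higher at that threshold. By limma no neuron marker was a DEG in either group. All 4 endothelial markers were lower in compound mice, 1 of them a DEG, with a median of -0.34, and 2 of the 4 were lower in 5XFAD mice. In Hdac1 cKO mice none of these markers was a DEG by limma. Rbfox3 stood at 164 to 178 FPKM there, beside 139 to 156 FPKM in control. The mean log2 level of the astrocyte markers was 6.28 to 6.31 beside 6.16 to 6.27, and neither pair of ranges overlapped. Of the 8 microglial markers 1 was lower, with a median of 0.15. At an unadjusted limma p under 0.05, 2 neuron markers were higher and 0 lower. The part of these cells in the results for Hdac1 cKO, 5XFAD and compound mice was not tested.

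Arl6 (chr16:59612775-59639217) measured 15.7, 19.4, 21.1 and 16.8 FPKM in the controls and from 6.05 to 19.6 FPKM in the 5XFAD mice, with a median of 10.8. It fell by 0.62 ± 0.24 on the log2 scale (limma p = 0.020, adjusted p = 0.37, exact permutation p = 0.062), although 5XFAD mouse 3 lay within the control range. The call rested on single mice: it was lost without control 3 (-0.56, with p above the threshold) and without 5XFAD mouse 1 (-0.46). Ift20 (chr11:78349863-78355239) measured 148, 129, 138 and 127 FPKM in the controls and from 75.8 to 119 FPKM, with a median of 105, in the 5XFAD mice, and the groups did not overlap (-0.41 ± 0.12, limma p = 0.0042, adjusted p = 0.20, exact permutation p = 0.0095). Ift74 had from 30.2 to 45.3 FPKM with a median of 41.5, also below every control (-0.38 ± 0.12, limma adjusted p = 0.24). Arl3 was at 198 ± 17.9 FPKM against 254 ± 34.1 in the controls (-0.35 ± 0.11, limma adjusted p = 0.22).

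Of the remaining genes with an unadjusted p under 0.05, Wdr35, a subunit of IFT-A, differed by -0.39 ± 0.13, Ift57 by -0.37 ± 0.15, Cep290 by -0.30 ± 0.12 and Ift81 by -0.29 ± 0.12. All 11 IFT-B subunits were lower, with a median of -0.25. Kif3a was at 69.9 ± 3.17 FPKM in 5XFAD and 69.7 ± 5.41 FPKM in control mice (0.01 ± 0.08). The highest difference was that of Ift140, an IFT-A subunit, at 1.79 ± 0.20 against 1.28 ± 0.53 FPKM, which did not pass (0.31 ± 0.17, limma adjusted p = 0.55).

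In compound mice, again against the same 4 controls, Bbs7 was the only DEG of the 38 genes (2.63%), against 4.24% of all 14348 genes. There were 4 genes at an unadjusted p under 0.05, all lower (10.5%), against 10.5% of all genes and 5.15% lower, and none at an adjusted p under 0.05 by limma, against 0.662%. That count was at the background in either direction and above it among lower genes. The median difference was -0.14 against -0.0072 over all genes, and 31 of 38 genes were lower against 51.4%.

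Bbs7 measured 3.63, 1.86, 2.04, 4.35 and 3.94 FPKM in the compound mice, beside the 3.62 to 8.20 FPKM of the controls given above. It fell by 0.61 ± 0.25 on the log2 scale (limma p = 0.032, adjusted p = 0.42, exact permutation p = 0.095), and the groups overlapped. The call was lost without control 1 (-0.41), control 3 (-0.60), compound mouse 2 (-0.48) or compound mouse 3 (-0.51). Arl6 measured 11.2, 11.01, 13.9, 11.1 and 16.9 FPKM (-0.49 ± 0.15, limma adjusted p = 0.22, exact permutation p = 0.040), and only compound mouse 5 was within the control range. Traf3ip1, an IFT-B subunit that binds microtubules, was at 3.20 ± 0.63 FPKM against 4.93 ± 0.57 in the controls, without overlap (-0.50 ± 0.16, limma adjusted p = 0.23). Ift57 was the fourth, at -0.38 ± 0.14. Ift74, at 57.7, 43.7, 50.6, 39.2 and 38.7 FPKM, ran from the Hdac1 cKO range to just above the highest control, and Ift20, at 139, 144, 121, 122 and 123 FPKM, overlapped the controls.

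**Figure D3:**
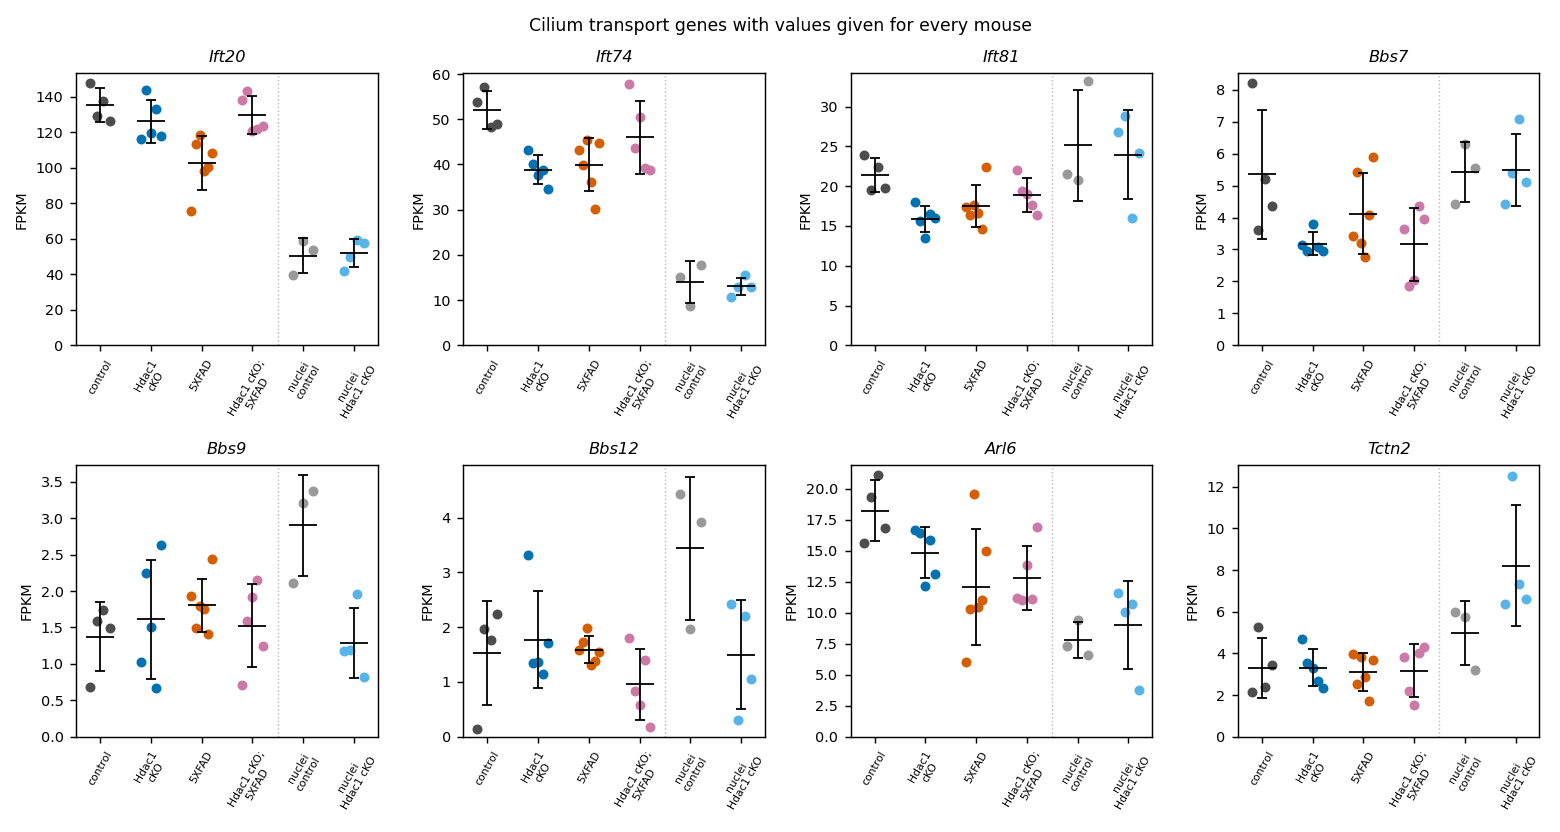
FPKM of each mouse for the 8 genes that were DEGs or had the smallest p-values, by group, with the mean and SD (black), linear axes from 0 and a dotted line between hippocampus and GFAP+ nuclei. Ift74 and Ift81 are lower in every Hdac1 cKO mouse than in any control, and Ift20 is lower in every 5XFAD mouse than in any control.

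The effect of Hdac1 loss was also measured among mice that carry 5XFAD. In compound against 5XFAD mice none of the 38 genes was a DEG, against 1.28% of all 14326 genes, 3 had an unadjusted limma p under 0.05 (7.89%), against 6.61%, and none had an adjusted p under 0.05, against 0.00698%. Ift20 was higher in every compound mouse than in any 5XFAD mouse (0.35 ± 0.11, limma adjusted p = 0.71, exact permutation p = 0.0043). Ift43 was higher as well (0.36 ± 0.15) and Bbs12, a chaperonin of BBSome assembly, lower (-0.47 ± 0.21, and -0.61, then a DEG, without compound mouse 1). The median difference was -0.0044, and 20 of 38 genes were lower, against 50.1% of all genes.

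Compound mice were then set against Hdac1 cKO mice. No gene was a DEG, against 3.55% of all 14195 genes, 2 had an unadjusted limma p under 0.05 (5.26%), against 10.3%, and none had an adjusted p under 0.05, against 1.49%. Those 2 were higher in compound mice, Bbs4 by 0.24 ± 0.11 and Ift81 by 0.23 ± 0.11. The number past that threshold was 0 without Hdac1 cKO mouse 3 or 5 or compound mouse 3, 4 without compound mouse 5, and 1 to 3 without any other mouse. The median was -0.03, and 23 of the 38 genes were lower, against 52.4% of all genes.

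Whether Hdac1 loss acted differently with and without 5XFAD was tested as an interaction over the 20 hippocampi. A positive value means that Hdac1 loss lowered the gene less, or raised it more, in mice with 5XFAD. Ift74 was the only one of the 38 genes past a fold of 1.5 and an unadjusted p under 0.05 (2.63%), against 4.07% of all 14389 genes. At an unadjusted p under 0.05 there were 5 genes, all positive (13.2%), against 8.97% of all genes and 4.86% positive (3 without Hdac1 cKO mouse 3 or compound mouse 3, 9 without 5XFAD mouse 3, and 4 to 7 without any other mouse), and none had an adjusted p under 0.05, as for all genes (0.0%). For Ift74 the interaction was 0.61 ± 0.17 (limma adjusted p = 0.31). Hdac1 loss went with -0.41 in mice without 5XFAD and 0.20 in mice with it. The interaction of Ift74 dropped just below 1.5-fold, to between 0.52 and 0.58, when control 2, Hdac1 cKO mouse 5, 5XFAD mouse 4 or 5, or compound mouse 1 or 3 was left out. The other 4 were Ift81 (0.52 ± 0.15), Ift20 (0.45 ± 0.15), Cep290 (0.43 ± 0.17) and Wdr35 (0.40 ± 0.18). The median over the 38 genes was 0.13 against 0.0067 over all genes, and 10 of the 38 were negative, against 49.1% of all genes. The markers of other ciliated cells, described below, had medians of the same sign: 0.70 over 16 ependymal markers, 5 of them past both thresholds, and 1.75 over 12 choroid plexus markers, none of them negative and 0 of them past an unadjusted limma p under 0.05. Their part in this result was not tested.

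**Figure D4:**
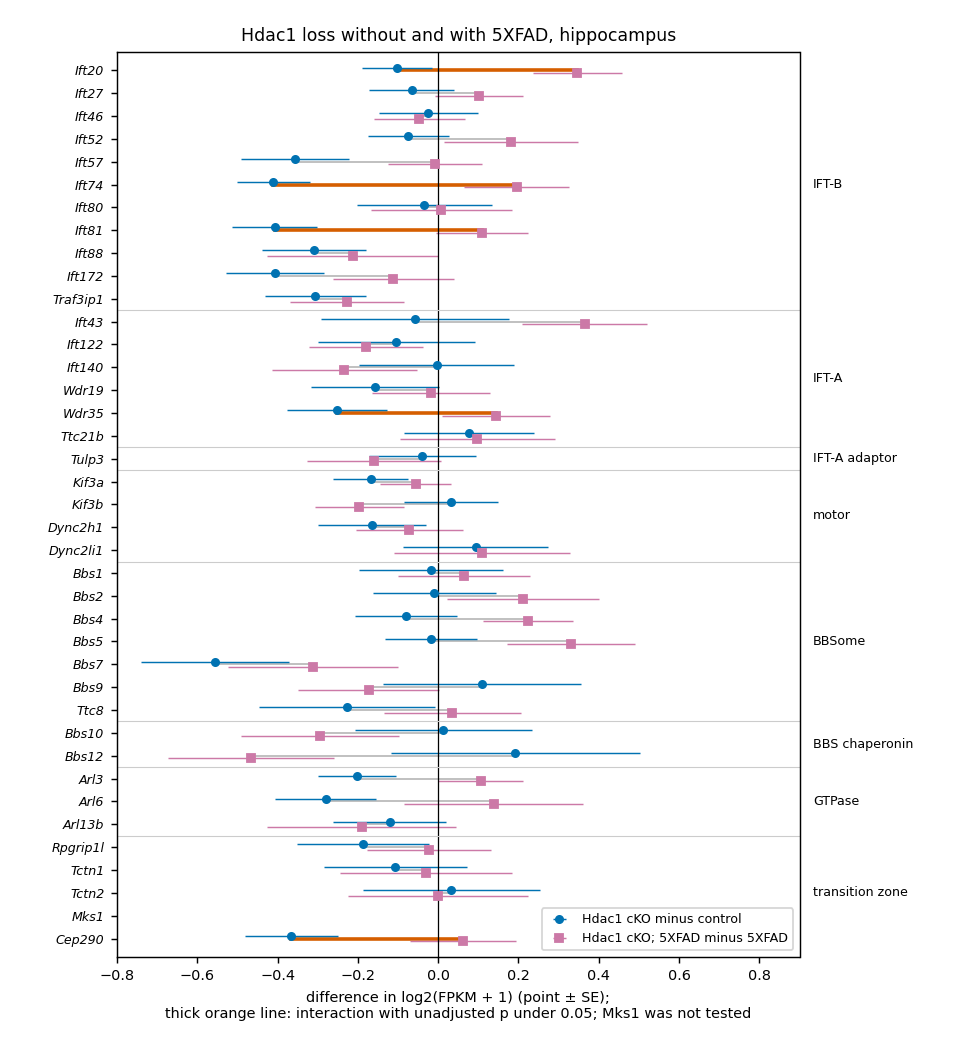
Difference in log2(FPKM + 1) with its SE on loss of Hdac1, without 5XFAD (circles, 5 Hdac1 cKO against 4 control mice) and with it (squares, 5 compound against 6 5XFAD mice), joined by a thick orange line where the interaction had an unadjusted limma p under 0.05. The joined pairs of Ift20, Ift74, Ift81, Wdr35 and Cep290 have the circle on the left.

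Markers of ependymal and choroid plexus cells moved with the groups. Ependymal cells bear motile cilia, and the choroid plexus is the ciliated epithelium that makes cerebrospinal fluid. The summed level of the 20 ependymal markers ranged from 162 to 365 FPKM in control, 110 to 139 in Hdac1 cKO, 119 to 180 in 5XFAD and 106 to 229 in compound hippocampi, and none was at 0 in every mouse of a group. Of the 16 ependymal markers tested, all were lower in Hdac1 cKO mice and 9 were DEGs, with Tekt1 at -1.75 ± 0.19, and 15 were lower in 5XFAD and in compound mice, with 7 DEGs each. All 12 choroid plexus markers had lower values in all 3 mutant groups. Of these, 12 were DEGs in Hdac1 cKO and 8 in compound mice, while in 5XFAD mice by limma 0 were DEGs and 0 had an unadjusted p under 0.05. Their summed level ranged from 603 to 20638 FPKM in control, 65.3 to 1649 in Hdac1 cKO, 62.3 to 8056 in 5XFAD and 66.5 to 14149 in compound hippocampi, and none was at 0 in every mouse of a group. Ttr, the most abundant choroid plexus transcript, was under 1000 FPKM in 1 of 4 control, 4 of 5 Hdac1 cKO, 2 of 6 5XFAD and 4 of 5 compound hippocampi. Their part in the differences of the cilium transport genes was not tested.

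Control 1 had little choroid plexus and ependymal RNA (Ttr at 576 FPKM, and a mean log2 level of the ependymal markers of 1.95 beside 2.59 to 2.67 in the other controls). Its cilium transport genes did not stand together among the controls. Ift81 (23.9 FPKM) and Ift20 (148 FPKM) were the highest of the 4 controls, while Arl6 (15.7 FPKM), Wdr35 (7.25 FPKM), Ift122 (2.62 FPKM), Bbs12 (0.143 FPKM) and Ift88 (10.5 FPKM, within the Hdac1 cKO range) were the lowest. The mean log2(FPKM + 1) over the 39 genes was 3.12 in control 1 and between 3.15 and 3.17 in the other controls, beside 2.98 to 3.06 in Hdac1 cKO, 2.87 to 3.11 in 5XFAD and 2.94 to 3.07 in compound mice. No mutant mouse reached the lowest control, but 5XFAD mouse 3 came close. Without control 1, the median difference over the 38 genes was -0.10 for Hdac1 cKO, -0.17 for 5XFAD and -0.18 for compound mice. The difference of Bbs12 turned from 0.19 to -0.15 in Hdac1 cKO and from 0.14 to -0.21 in 5XFAD mice, and went from -0.33 to -0.67 in compound mice, where it became a DEG while Bbs7 ceased to be one. Among 5XFAD mice, the 2 with the lowest Ttr, 4 and 5, also had the lowest means over the 39 genes (2.88 and 2.87), and compound mouse 1, with the highest Ttr of its group, had the highest (3.07). Control 1 and compound mouse 5 had both the lowest Ttr and the lowest mean of their groups. By contrast, Hdac1 cKO mouse 5, with the highest Ttr of its group (1608 FPKM), had a mean of 2.99, and compound mouse 3, with 148 FPKM, a mean of 3.05.

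**Figure D5:**
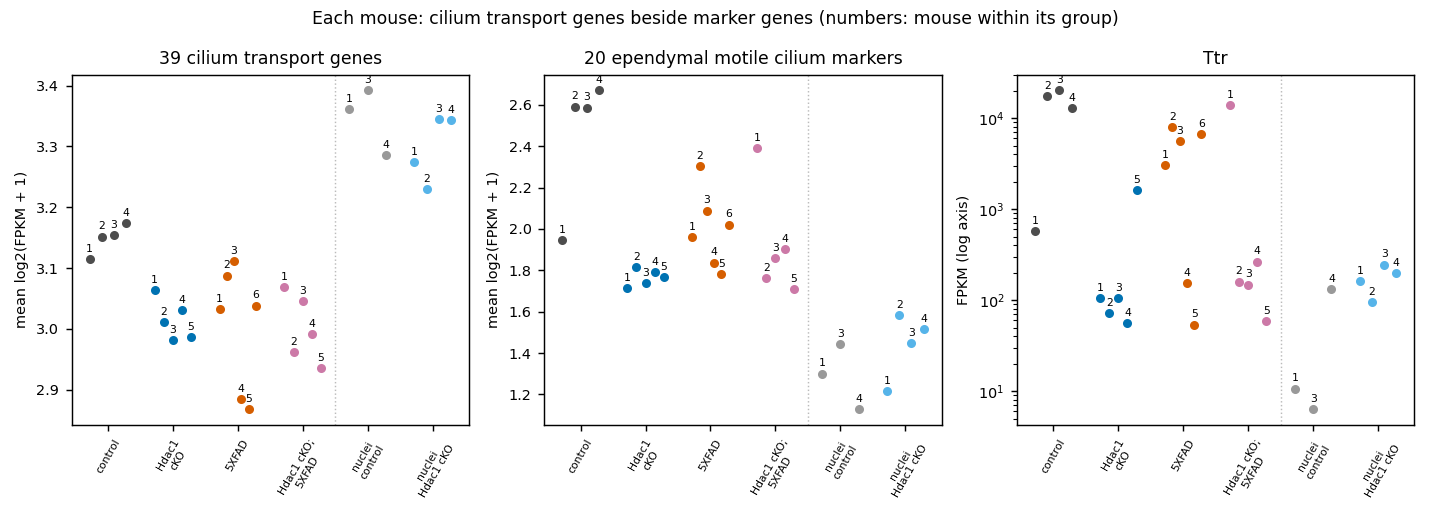
Mean log2(FPKM + 1) over the 39 cilium transport genes and over the 20 ependymal markers, and FPKM of Ttr (log axis), 1 point per mouse with its number within its group. Control 1 is low in Ttr and in ependymal markers, and its mean over the 39 genes (3.12) lies just above that of the highest mutant hippocampus, 5XFAD mouse 3 (3.11).

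The fits were repeated with the ependymal marker level of each mouse as a covariate. The median difference over the 38 genes was then -0.08 for Hdac1 cKO, -0.04 for 5XFAD and -0.10 for compound mice against control, and 0.03 for the interaction. For Hdac1 cKO, Ift74 was at -0.50 and Ift81 at -0.63, both still with an unadjusted limma p under 0.05. Ift57, at -0.79, Bbs7, at -1.346, and Ift172 were still past it as well. Ttc8, which was lower, and Bbs12, which went from 0.19 to 1.48, came past it in that fit. Cep290, at -0.32, Ift88, at -0.02, Arl6, at -0.03, and Traf3ip1 were no longer past it. For 5XFAD, Ift20 was at -0.41 and Arl3 at -0.36, both past that threshold, whereas Arl6, at -0.44, and Ift74, at -0.31, were not. In that fit 4 of the 38 genes were past it in place of 8, beside 1293 of all 14402 genes, so that the count was near the background. The other two were higher: Bbs9, at 0.53, and Bbs12, at 0.83, which became the only DEG, beside 711 DEGs over all genes. The interaction of Ift74, at 0.39, was not past it, while those of Ift20, at 0.40, and Ift81, at 0.46, were, as was that of Bbs12, at -1.54. Those of Cep290, at 0.27, and Wdr35, at 0.25, were no longer past it. With the choroid plexus marker level as the covariate instead, Ift74 was past it both for 5XFAD, at -0.28, and for the interaction, at 0.47, and Arl6, at -0.48 for 5XFAD, was not. The interactions of Cep290, at 0.33, and Wdr35, at 0.32, were again not past it. For Hdac1 cKO, 6 of the 38 genes were past it with that covariate, beside 1256 of all 14265. Lower were Ift57, at -0.59, Ift74, at -0.53, Ift81, at -0.55, and Bbs7, at -1.18. Higher were Bbs9, at 0.88, and Bbs12, at 1.25. Ift172, Traf3ip1, Cep290, Ift88 and Arl6 were no longer past it. In the choroid plexus marker level, control and Hdac1 cKO mice overlap only through control 1 and Hdac1 cKO mouse 5. Control and Hdac1 cKO mice do not overlap in the ependymal marker level, so in that comparison it cannot be well told apart from the group. In the Hdac1 cKO fit with the ependymal covariate, 7 of the 38 genes passed an unadjusted p under 0.05, 6 of them lower, beside 1301 of all 14265.

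In GFAP+ nuclei, 3 of the 39 genes were DEGs between Hdac1 cKO and control (7.69%), against 2.58% of all 15070 genes. The same 3 were those with an unadjusted limma p under 0.05 (7.69%), against 4.7% of all genes, and none had an adjusted p under 0.05, against 0.0133%. Over the 39 genes the median difference was -0.03, and 21 were lower, against 51.0% of all genes. The smallest p that an exact permutation of 3 against 4 mice can give is 0.029.

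Bbs9, a BBSome subunit (chr9:22280159-22692724), measured 2.11, 3.22 and 3.38 FPKM in the control nuclei and 1.18, 1.196, 1.96 and 0.821 FPKM in the Hdac1 cKO nuclei. Every Hdac1 cKO value was under every control value, and the gene fell by 0.78 ± 0.26 on the log2 scale (limma p = 0.013, adjusted p = 0.98, exact permutation p = 0.057). This call was kept in 7 of 7 fits that each left out 1 mouse. Bbs12 (chr3:37211476-37220375) measured 4.43, 1.96 and 3.92 FPKM in control and 2.41, 0.296, 2.21 and 1.059 FPKM in Hdac1 cKO nuclei, which overlap. It fell by 0.88 ± 0.37 (limma p = 0.038, adjusted p = 0.98, exact permutation p = 0.17). The call was lost without control 1 (-0.72), control 4 (-0.79), Hdac1 cKO mouse 2 (-0.60) or Hdac1 cKO mouse 4 (-0.83).

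Tctn2, a membrane protein of the transition zone (chr5:125048758-125077658) whose promoter holds an X-box shown above, measured 5.99, 5.75 and 3.21 FPKM in control and 6.36, 12.5, 7.33 and 6.60 FPKM in Hdac1 cKO nuclei, without overlap. It rose by 0.61 ± 0.27 (limma p = 0.047, adjusted p = 0.98, exact permutation p = 0.057). The call was lost without control 4 (0.38), Hdac1 cKO mouse 2 (0.41) or Hdac1 cKO mouse 3 (0.64). It was also lost without the filter on mean FPKM and with the replicate number as a block, where no gene of the list was a higher DEG. In the hippocampal fits with every mouse and no covariate, none of these 3 genes had an unadjusted limma p under 0.05 against control. With a covariate or with a mouse left out, Bbs9 and Bbs12 could pass that threshold, as given above. Conversely, Ift74 (-0.05 ± 0.23), Ift81 (-0.07 ± 0.23), Ift20 (0.05 ± 0.18) and Cep290 (0.06 ± 0.21) were close to 0 in the nuclei with wide errors, and the difference between tissues was not tested. Ependymal markers were low in both groups of nuclei, with summed levels of 42.4 to 56.6 FPKM in control and 47.0 to 64.6 FPKM in Hdac1 cKO nuclei. They nevertheless moved with the group: 3 of the 11 ependymal markers tested were lower, with a median of 0.31 and 1 DEG, Tekt1, which rose by 0.64, and 1 of the 9 choroid plexus markers was lower, with a median of 0.39 and 2 DEGs, Ttr and Folr1, both higher. Endothelial markers summed to 31.3 to 51.5 FPKM in control and 21.4 to 29.1 FPKM in Hdac1 cKO nuclei, without overlap, and 1 of the 4 was a lower DEG. Of the 8 astrocyte markers, 2 were higher at an unadjusted limma p under 0.05. Of the 6 oligodendrocyte markers 5 were lower, 0 of them past that threshold. The part of these cells in the results of the nuclei was not tested. Ttr ranged from 6.404 to 131 FPKM in control and from 95.9 to 246 FPKM in Hdac1 cKO nuclei.

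Other genes of ciliary transport, a list of 42 such as further IFT, kinesin-2 and transition zone genes, were read in the same fits. Of the 40 tested, none was a DEG in Hdac1 cKO against control mice by limma, against 3.36% of all genes. At an unadjusted p under 0.05, 4 were lower, against 6.84% of all genes, and the median was -0.06. In 5XFAD mice, 1 was a DEG, Tmem107 of the transition zone (-0.66 ± 0.15, limma adjusted p = 0.079), against 2.95% of all genes. At an unadjusted p under 0.05, 6 were lower, against 5.46% of all genes, and the median was -0.14. In compound mice none was a DEG by limma, against 4.24% of all genes. At an unadjusted p under 0.05, 1 was higher and 3 were lower, against 10.5% of all genes and 5.15% lower, and the median was -0.02. The interaction of Tmem107 was 0.75 ± 0.21. In nuclei, 2 of the 40 tested were lower DEGs and 1 was a higher DEG, against 2.58% of all genes. Ttc30b, an IFT-B subunit, fell by 0.99 ± 0.26, Tmem231 fell by 0.61 ± 0.25 and Rabl2, a GTPase that binds IFT-B, rose by 0.68 ± 0.25, each with a limma adjusted p of 0.98.

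The genes that signal through the cilium, a list of 17 with the Hedgehog pathway and ciliary receptors, were read last. Of the 10 that passed the filter in hippocampus, none was a DEG against control in any mutant group by limma, none had an unadjusted p under 0.05 in Hdac1 cKO or 5XFAD mice and 1 did in compound mice. Over all genes, 3.36%, 2.95% and 4.24% were DEGs in Hdac1 cKO, 5XFAD and compound mice. The shares with an unadjusted p under 0.05 were 11.7%, 10.7% and 10.5%. The median differences of the 10 signalling genes were 0.05, 0.01 and 0.03 in Hdac1 cKO, 5XFAD and compound mice.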

How the data were processed

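The authors deposited 1 FPKM value per gene and sample. Hippocampal RNA was read by 3′ Digital Gene Expression, collapsed, aligned with Tophat2 and quantified with Cufflinks 2.0.0 on UCSC genes of mm9. For the nuclei (SMART-Seq v4), the submitters' processing notes name TopHat, Cufflinks 2.0.0 and mm9 among the tools of the whole series, without saying which served which file. No fragment counts are given, so counting intervals and detection limits were not computed. Left out were 7 of 34 samples, 6 of them ChIP-seq, which are not analysed here. Groups follow the labels. Where no label says that samples came from separate animals, p-values measure only the spread between these samples.

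Genes averaging 0.5 FPKM or more across the mice of a comparison were tested in limma 3.58.1 (R 4.3.3; trend, robust) on log2(FPKM + 1), with only the compared groups in the fit, and p-values were adjusted (Benjamini-Hochberg) over all genes tested. The DEG thresholds, a fold of 1.5 and p under 0.05, are those of the study's methods. The fits were tested on simulated data. Single genes also had two-sided exact permutation tests (Python 3.11.15). No library pair shared more than 0.0261% of identical values above 0.

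Values of every mouse were given for genes that were DEGs, then by smallest p up to 8 genes, for Cep290 (the highest of the transition zone) and for Hdac1. Of each role the gene with the highest mean over the hippocampal groups was named. Of other lists, DEGs were named (at most 3 per direction). Further genes were named by size of change or level after their values were seen. The members, gene lists and tests were chosen with earlier results of these data known. Gene positions are from GENCODE vM1 on mm9. The mm9 positions of the promoter stretches come from exact matches of the whole RefSeq window. Alternatives are in the closing section.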

Additional observations from a re-analysis of the deposited data

Results flagged for a closer look

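Bbs7 was at 3.79 FPKM in Hdac1 cKO mouse 3 and between 2.94 and 3.15 FPKM in the other 4 mice of that group, and Bbs12 was at 0.14 FPKM in control 1 and between 1.76 and 2.24 FPKM in the other controls. In the GFAP+ nuclei, Arl6 was at 3.78 FPKM in Hdac1 cKO mouse 4 and between 10.1 and 11.6 FPKM in the other 3. Each stood apart from its group by Dixon's test on log2(FPKM + 1), which flags about 1 group in 20 by chance, and 75 groups were tested. The effect of Hdac1 loss differed between mice with and without 5XFAD, at an unadjusted limma p under 0.05, for Ift74 (0.61, adjusted p = 0.31), Ift81 (0.52, adjusted p = 0.35), Ift20 (0.45, adjusted p = 0.39) and Cep290 (0.43, adjusted p = 0.48). Wdr35 (0.40, adjusted p = 0.53) met the same threshold.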

How the results depend on the processing

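The numbers of cilium transport genes that were DEGs were small, so that a single gene moves them. For Hdac1 cKO against control the number was 0, and became 1 with a pseudocount of 0.1 or with folds from mean FPKM, 5 with the ependymal covariate, 4 with the choroid plexus covariate (where DEGs over all 14265 genes rose from 480 to 1072 and 872), and 0 to 1 when each mouse was left out (1 without control 2, control 4 or Hdac1 cKO mouse 3). For 5XFAD it was 1, with 0 under an adjusted p or the choroid plexus covariate and 0 to 2 with a mouse left out (2 without control 2, 0 without control 3 or 5XFAD mouse 1). For compound against control it was 1, with 2 under a pseudocount of 0.1, folds from mean FPKM or the ependymal covariate, 0 under quantile normalization or an adjusted p, and 0 to 2 with a mouse left out (0 without control 3 or compound mouse 2, 2 without compound mouse 5). For compound against 5XFAD it was 0, with 1 under a pseudocount of 0.1 or folds from mean FPKM and 0 to 1 with a mouse left out (1 without compound mouse 1). For compound against Hdac1 cKO it was 0, with 1 under either covariate and 0 to 1 with a mouse left out (1 without Hdac1 cKO mouse 4 or compound mouse 1 or 4). In GFAP+ nuclei it was 3, with 0 under an adjusted p, 2 under a pseudocount of 0.1 or no filter, and 2 to 4 with a mouse left out (4 without control 1 or 3, and 2 without control 4 or Hdac1 cKO mouse 2 or 3). For the interaction it was 1, with 0 under quantile normalization or an adjusted p and 0 to 2 with a mouse left out (2 without control 4 or 5XFAD mouse 6, 0 without Hdac1 cKO mouse 5, 5XFAD mouse 4 or 5, or compound mouse 3). With either covariate it stayed 1, but the gene was Bbs12 and no longer Ift74. The sign was then negative (-1.54 with the ependymal and -1.06 with the choroid plexus covariate). Without compound mouse 1 the only gene called was negative as well.

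Mice with the same replicate number did not deviate together (correlations over genes of -0.11 to 0.08), so the numbers were not taken as pairs. A replicate block made the number 2 for compound against control, 1 in the nuclei and 0 for the interaction, and left the others as they were. Differences of named genes with an unadjusted p under 0.05 kept their sign in all 485 repeats. A repeat was counted as the same where the gene kept or still lacked the DEG call, whatever the size of its difference. By that rule 434 repeats were the same, 37 weaker (call lost) and 14 stronger (call gained). Arl6 in Hdac1 cKO against control mice, at -0.28 and at -0.03 with the ependymal covariate, thus counted as the same. Differences past no threshold could turn: Bbs12 in compound against control mice went from -0.33 to 0.60 with the ependymal and 0.48 with the choroid plexus covariate. The median over the genes moved by more than the spread between mice in 5 of 121 repeats. For 5XFAD against control it was -0.10 under the replicate block (25 of 38 genes lower) and -0.04 with the ependymal covariate. With the choroid plexus covariate it was -0.09 for 5XFAD against control and 0.08 for compound against 5XFAD. The cause of the changes was not tested.

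Depth is known only relative to other libraries, genes near 1 FPKM rest on few fragments, and a gene listed at 0 was not detected at that depth.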
